A study of Sus scrofa with 21 samples.

Results

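Antigen processing for MHC class I was described in whole blood through 8 genes. They were the immunoproteasome subunits PSMB8, PSMB9 and PSMB10, the peptide transporter chains TAP1 and TAP2, tapasin (TAPBP), the aminopeptidase ERAP1 and the transactivator NLRC5. The members were chosen by name: every probe whose gene name in the array files was one of these 8, with letter case ignored, which gave 20 probes among the 60305 probes that are not controls. The lowest 25% of probes by mean level were set aside, and 19 of the 20 member probes passed. The one removed was the PSMB8 probe O5527, which was well above background on 2 of 10 DD arrays and 0 of 11 LW arrays. The 8 genes are 8 of the 34393 gene names tested.

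The groups were 10 DD pigs (SLAdd, a minipig line homozygous at the swine leukocyte antigen or SLA locus and kept inbred) and 11 LW pigs (Large White, a conventional breed used as control), all 60 days old and fed a standard diet ad libitum. RNA from PAXgene blood was read with 1 Cy3 label on 21 custom Agilent pig arrays of 3 chips. The pigs came from 5 DD and 6 LW litters, with 1 or 2 siblings of a litter measured. DD is a single inbred herd, so breed, herd and SLA haplotype cannot be told apart, and sex was not given in the sources used here.

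MHC class I molecules show the rest of the body short peptides cut from the cell's own proteins. The proteasome cuts the proteins, and interferon-gamma replaces its catalytic subunits by PSMB8, PSMB9 and PSMB10 to form the immunoproteasome. TAP1 and TAP2 together pump the peptides into the endoplasmic reticulum, tapasin bridges this transporter to empty class I molecules, and ERAP1 trims peptides to their final length there. NLRC5 binds with partners at class I promoters and switches on class I genes together with PSMB9, TAP1 and B2M. In the RefSeq table of Sscrofa11.1, PSMB8 (chr7:25058456-25061666), PSMB9 (chr7:25072133-25077508), TAP1 (chr7:25062772-25071989) and TAP2 (chr7:25045085-25056915) lie side by side in the SLA class II region, and TAPBP (chr7:29663491-29673453) lies further along the same chromosome. The DD line was selected for homozygosity at the SLA locus. How far the selected segment reaches was not given in the sources used here, so whether it holds TAPBP is not known. ERAP1 (chr2:103378428-103415066), NLRC5 (chr6:18933179-19036288) and PSMB10 (chr6:28544910-28547609) lie elsewhere.

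The array read these genes with 1 to 4 probes of 60 bases each, and probes of 1 gene did not always move together. The sequences on which the results turn are given here. The first 3 are the TAP2 probes, all with a GC content of 55%. They are shown whole because only the first differed between the breeds at an adjusted p under 0.05.
TAP2 A_72_P013781: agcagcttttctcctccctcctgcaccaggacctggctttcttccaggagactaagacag
TAP2 A_72_P275849: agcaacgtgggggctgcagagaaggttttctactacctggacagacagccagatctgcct
TAP2 O9791: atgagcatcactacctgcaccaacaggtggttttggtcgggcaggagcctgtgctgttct
The next lines show, for TAP1 and PSMB10, a whole probe without AATAAA, the usual polyadenylation signal near the end of a messenger RNA, beside a 30-base window of a probe of the same gene that holds it. The 2 probes of each pair followed each other little from pig to pig (r of 0.01 for TAP1 and 0.29 for PSMB10). A further PSMB10 probe without AATAAA, A_72_P644145, followed the window's probe at r = 0.95, so holding the letters did not sort the PSMB10 probes. The window of a PSMB9 probe that holds AATAAA closes the set. Capitals mark AATAAA.
TAP1 A_72_P223837: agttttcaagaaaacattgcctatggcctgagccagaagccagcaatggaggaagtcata
TAP1 O4777: cttggtatttatAATAAAattggtgtttcg
PSMB10 A_72_P024281: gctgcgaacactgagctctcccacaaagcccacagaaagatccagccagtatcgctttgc
PSMB10 A_72_P003971: ggaacaaggaggAATAAAcccagaaaacac
PSMB9 A_72_P035551: cctgctgtattttgtAATAAAcgttctggg
The NLRC5 probes follow. The window of A_72_P527747 opens with the same letters, at position 903 of its source sequence, and a match is not by itself a polyadenylation site.
NLRC5 A_72_P527747: AATAAAatcctgctcatctttgatgggctg
NLRC5 O8413: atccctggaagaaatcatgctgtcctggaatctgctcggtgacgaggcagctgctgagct
The last line gives the final 30 bases of the only TAPBP probe. Capitals mark 11 bases that 40 probes on the array hold on the same strand.
TAPBP O846: ataatcttatgGGAGTTCCCGTtgtggctc
Of all 60305 probes, 10.3% hold AATAAA and 4.32% hold its reverse complement TTTATT. Among the 20 member probes 5 hold AATAAA, which are the PSMB10 probes A_72_P003971 and A_72_P501185, PSMB9 A_72_P035551, TAP1 O4777 and NLRC5 A_72_P527747.

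None of the 8 genes differed between DD and LW pigs at an adjusted p under 0.05. Genes that did not pass were not thereby shown to be equal. The values were the deposited log2 quantile-normalised levels, averaged over the probes of a gene. The test was limma with breed and chip as fixed effects and litter as a random block, with Benjamini-Hochberg adjustment over all 34393 gene names. By the same test 20.9% of all gene names were called, 11.4% higher and 9.41% lower in DD pigs. At an unadjusted p under 0.05 the count was 1 of 8, NLRC5, against 36.6% of all gene names. The median difference of the 8 genes was 0.12 on the log2 scale, DD minus LW, beside -0.04 over all gene names; 6 were higher and 2 lower in DD pigs. In whole blood, fewer cells of a type and less RNA per cell cannot be told apart. A pair of array measures moved with these values. The first was brightness, the log2 75th percentile of an array's processed signal, which was 7.53 ± 0.54 (SD, n = 10) in DD and 8.22 ± 0.38 (SD, n = 11) in LW pigs. The second was a body-to-end index, the mean over 1180 other genes of the level of their probes without AATAAA minus that of their probes with it, centred over the arrays. It was low, between -0.46 and -0.24, on 5 arrays (DD_13, DD_16, LW_15, LW_18 and LW_22) and at least -0.14 on the others. Its breed difference was 0.07 ± 0.08 (SE). The study's methods name a technical bias of the third chip.

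**Figure D1:**
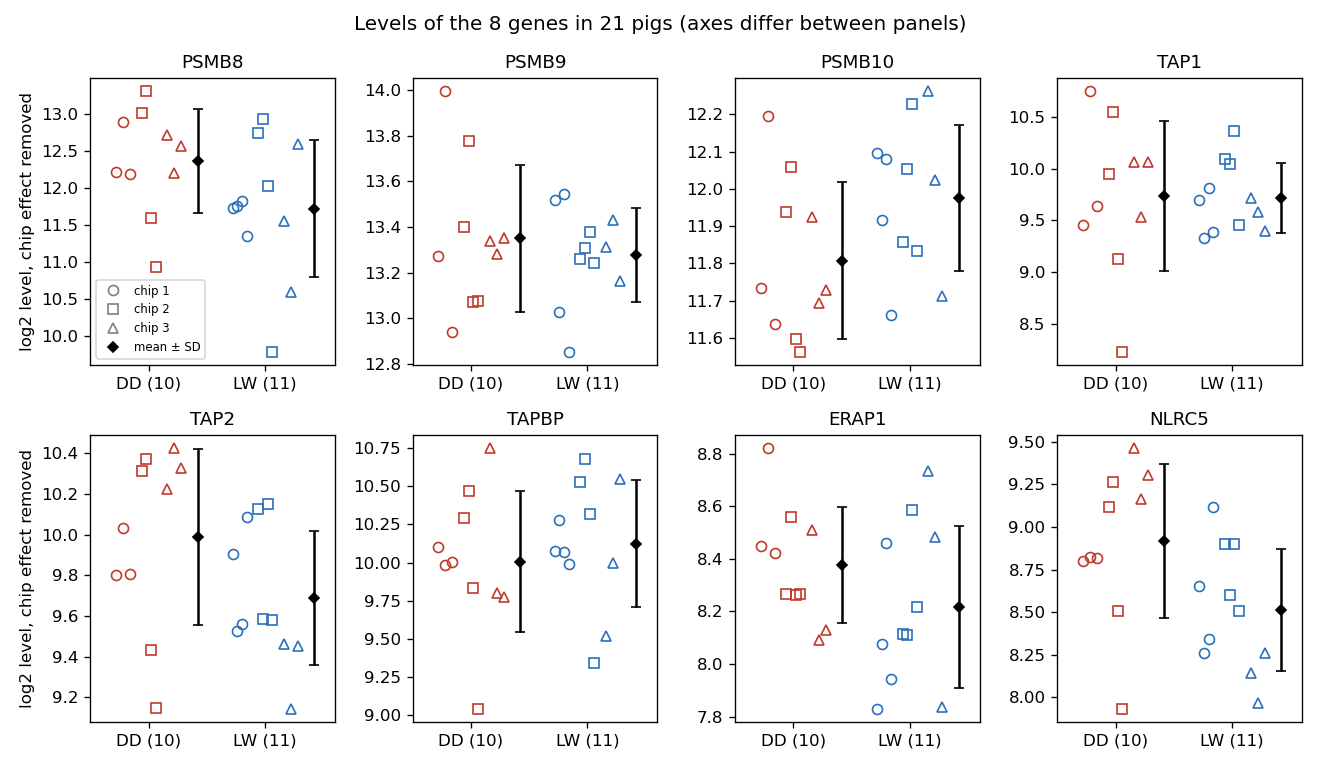
The 8 panels plot the log2 level of each gene with the chip effect removed, 1 symbol per pig with its shape giving the chip, for 10 DD and 11 LW pigs; diamonds and bars are means and SD. The breeds overlap in every panel, and the DD mean of PSMB8 (12.4) lies above that of LW (11.7) with a wide spread in both.

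Among the immunoproteasome subunits, PSMB8 had the largest difference of the 8 genes and PSMB9 and PSMB10 differed little. PSMB8 replaces the chymotrypsin-like subunit PSMB5. Its level ran from 11.1 (DD_16) over a median of 12.4 to 13.5 (DD_11) in DD pigs, and from 9.85 (LW_22) over 12.2 to 13.1 (LW_12) in LW pigs. The breeds overlapped, with 3 DD pigs above every LW pig and 3 LW pigs below every DD pig. The fitted difference was 0.65 ± 0.33 (SE), or 1.57-fold, with a 95% interval from -0.04 to 1.33 (limma, adjusted p = 0.161). It was positive on each chip, at 0.77, 0.34 and 0.92. Leaving out LW_15 alone moved it to 0.42 (adjusted p = 0.284), and leaving out DD_16 alone to 0.81 (adjusted p = 0.0747). The 3 LW pigs with PSMB8 below every DD pig were LW_15, LW_18 and LW_22, which are the 3 LW arrays with the lowest body-to-end index. Without the 5 arrays of low index the PSMB8 difference was 0.55 (adjusted p = 0.135).

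The 3 PSMB8 probes that were kept gave one picture. Their differences were 0.61, 0.64 and 0.68, and their levels followed each other across the 21 pigs at r of 0.98 to 1.00 once chip and breed means were removed. A_72_P444948 and A_72_P564399 share a run of at least 20 bases, so they are not separate readings. As descriptions over 21 pigs on the same arrays, the 3 probes followed the body-to-end index at r between 0.72 and 0.82. With the index as a covariate the PSMB8 difference was 0.40 (adjusted p = 0.214). With brightness as a covariate it was 0.96 (adjusted p = 0.397), and with both it was 0.89 (adjusted p = 0.0389), so whether PSMB8 passed depended on the covariates.

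PSMB9, which replaces the caspase-like subunit PSMB6, ran from 12.8 over 13.3 to 14.2 in DD pigs and from 12.7 over 13.5 to 13.7 in LW pigs. The 2 highest pigs were the DD siblings DD_06 (14.2) and DD_11 (14.0), and the other DD pigs lay within the LW range. The difference was 0.08 ± 0.12 (SE), with a 95% interval from -0.18 to 0.34 (limma, adjusted p = 0.683), whose upper end is 1.26-fold. Without the litter of DD_06 and DD_11 it was -0.06.

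PSMB10, which replaces the trypsin-like subunit PSMB7, ran from 11.4 over 11.7 to 12.3 in DD pigs and from 11.4 over 12.0 to 12.3 in LW pigs. The ranges were almost the same, with the DD median the lower. The difference was -0.17 ± 0.10 (SE), with a 95% interval from -0.38 to 0.05 (limma, adjusted p = 0.248), and it was negative on each chip at -0.08, -0.20 and -0.22. All 4 probes were lower in DD pigs, by values from -0.14 to -0.21, none past the threshold. Without the litter of DD_06 and DD_11 PSMB10 fell by 0.25 in the remaining pigs (adjusted p = 0.0475). With brightness as a covariate its difference was 0.03 (adjusted p = 0.993).

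**Figure D2:**
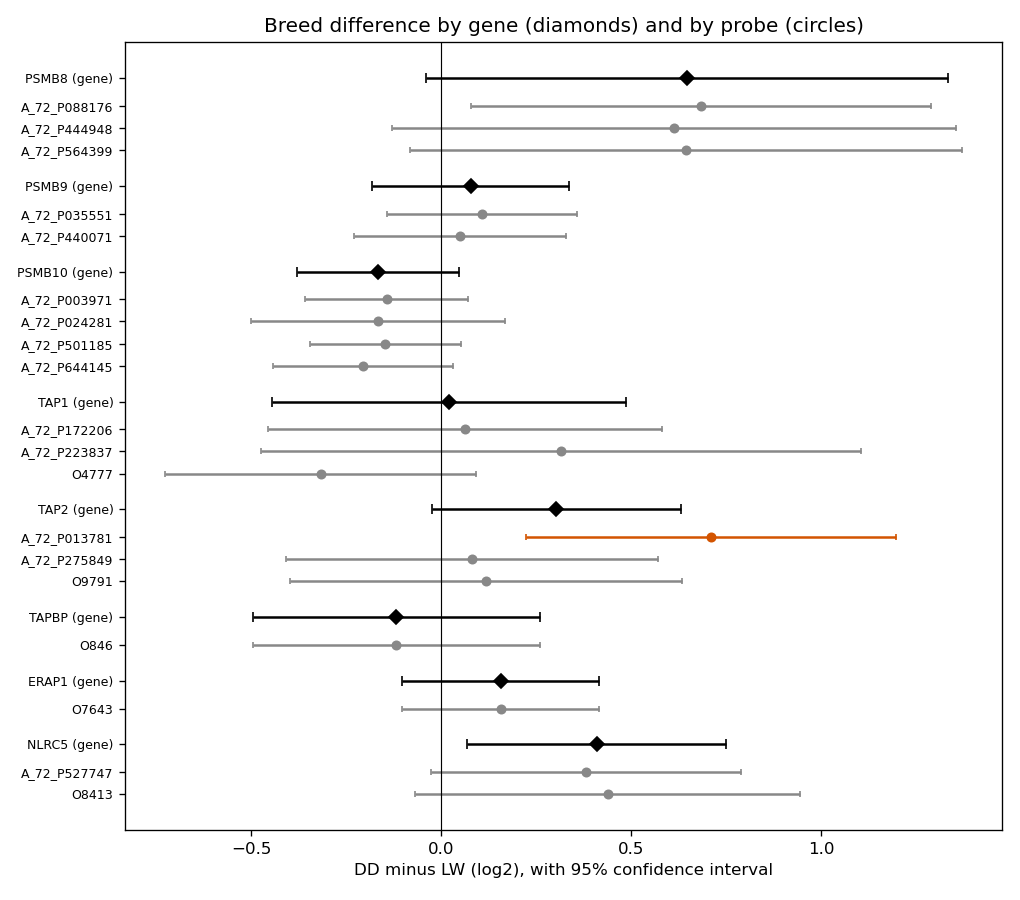
The difference DD minus LW in log2 units is plotted with its 95% confidence interval for each of the 8 genes (diamonds) and each of their 19 probes (circles; orange marks an adjusted p under 0.05). Only TAP2 A_72_P013781 is past the threshold, at 0.71, while the other TAP2 probes lie at 0.08 and 0.12.

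The transporter chains did not pass the threshold as genes, and the probes of each disagreed. TAP1 ran from 8.44 (DD_16) over 9.66 to 11.2 (DD_06) in DD pigs and from 8.79 over 9.80 to 10.6 in LW pigs. DD pigs lay at both ends, with 2 above and 1 below every LW pig. The difference was 0.02 ± 0.22 (SE), with a 95% interval from -0.45 to 0.48 (limma, adjusted p = 0.958). The chips gave 0.39, -0.52 and 0.32.

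Within TAP1, A_72_P223837 was 0.31 higher in DD pigs and O4777 was 0.32 lower, with limma adjusted p of 0.572 and 0.246. The third probe, A_72_P172206, gave 0.06 (limma, adjusted p = 0.875). In LW pigs the medians of these probes were 9.45, 14.1 and 6.43, in that order, so the gene value averages probes of unlike level. A_72_P223837 and O4777 did not follow each other across pigs (r = 0.01 over 21 pigs, chip and breed removed). A_72_P172206 had r of 0.80 with A_72_P223837 and 0.38 with O4777. A_72_P223837 followed the body-to-end index (r = 0.87), and its chip differences of 0.61, -0.77 and 1.43 stood beside index differences of 0.00, -0.08 and 0.33 between DD and LW arrays of the same chips. O4777 had r = -0.32 with the index. With the index as a covariate the difference of A_72_P223837 was -0.01. A probe designed on an SLA transcript model, OTTSUST00000000539, shares a run of at least 20 bases with O4777 and followed it at r = 0.98, with a difference of -0.41 (adjusted p = 0.149). The probe for the opposite strand of that model was well above background on 4 of 10 DD and 9 of 11 LW arrays. Its difference in level was 0.04 (limma, adjusted p = 0.908). Of all probes, a mean of 53.2% were well above background on DD and 59.2% on LW arrays.

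TAP2 ran from 9.07 (DD_16) over 10.2 to 10.4 (DD_06) in DD pigs and from 8.88 (LW_22) over 9.87 to 10.4 (LW_07) in LW pigs. No DD pig was outside the LW range. The difference was 0.30 ± 0.16 (SE), or 1.23-fold, with a 95% interval from -0.03 to 0.63 (limma, adjusted p = 0.169). It rested on the third chip: the chips gave 0.11, -0.05 and 0.97, and without the third the difference was -0.02 (adjusted p = 0.971).

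The TAP2 probe A_72_P013781 was the only one of the 19 member probes that passed the threshold, where 21.7% of all 45228 probes did. Its level ran from 13.4 over 14.6 to 15.6 in DD pigs and from 12.6 over 14.0 to 15.1 in LW pigs. The highest pig was DD_21 and the lowest LW_12, with a wide overlap. The difference was 0.71 ± 0.23 (SE; limma, adjusted p = 0.0369). By chip it was -0.03, 0.93 and 1.23, and on the same chips DD arrays differed in brightness from LW arrays by -0.07, -0.76 and -1.27. Across the 21 pigs the probe had r = -0.89 with brightness, and 1.83% of all kept probes had a more negative value. With brightness as a covariate the difference was -0.08 (adjusted p = 0.971). A_72_P275849 and O9791, which followed each other at r = 0.86, gave 0.08 and 0.12, and A_72_P013781 had r of -0.10 and -0.48 with them. Their LW medians, 7.64 and 8.04, lay far below that of A_72_P013781.

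**Figure D3:**
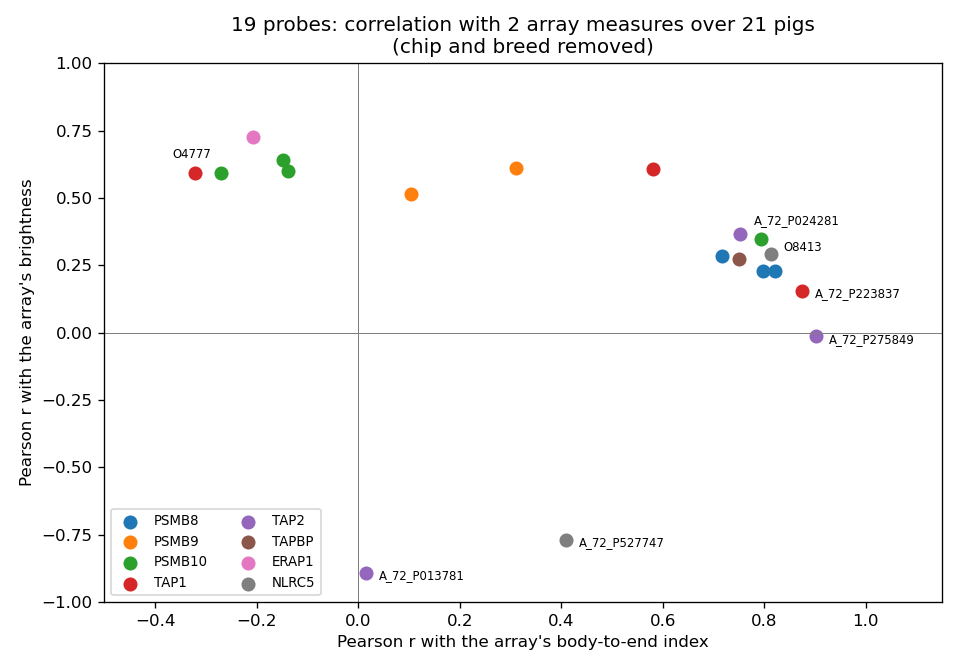
Each of the 19 kept probes is placed by its Pearson r with the array's body-to-end index (horizontal) and with the array's brightness (vertical) over 21 pigs, after chip and breed means were removed; colour gives the gene. Probes of TAP1, PSMB10, TAP2 and NLRC5 fall in different places, with TAP2 A_72_P013781 at -0.89 and NLRC5 A_72_P527747 at -0.77 on the vertical axis.

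Neither the single TAPBP probe nor ERAP1 passed the threshold. TAPBP ran from 8.83 (DD_16) over 10.2 to 10.6 in DD pigs and from 9.13 (LW_15) over 10.3 to 10.8 in LW pigs. The lowest pigs of both breeds, DD_16 and LW_15, are arrays of low body-to-end index. The difference was -0.12 ± 0.18 (SE), with a 95% interval from -0.50 to 0.26 (limma, adjusted p = 0.668). All 3 forward reading frames of its single probe O846 hold a stop codon. The 36 other kept probes with the 11 bases marked in its sequence followed it at a median r of 0.86 over 21 pigs, beside -0.09 for all kept probes, and they made up 11 of the 50 probes most like it and 0.0796% of all. Whether this probe reads tapasin was not tested.

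ERAP1, also read by 1 probe (O7643), ran from 7.85 (DD_21) over 8.41 to 8.92 (DD_06) in DD pigs and from 7.60 (LW_24) over 8.26 to 8.73 (LW_14) in LW pigs. One DD pig was above every LW pig. The difference was 0.16 ± 0.12 (SE), with a 95% interval from -0.10 to 0.41 (limma, adjusted p = 0.378). The chips gave 0.49, 0.08 and -0.11. With brightness as a covariate it was 0.46 (adjusted p = 0.0625), and with brightness and index 0.46 (adjusted p = 0.0463).

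NLRC5 had the smallest p of the 8 genes. It ran from 7.77 (DD_16) over 9.11 to 9.27 (DD_19) in DD pigs and from 7.77 (LW_22) over 8.61 to 9.47 (LW_07) in LW pigs. The DD median lay above 10 of the 11 LW pigs, and the lowest pigs of both breeds were at the same level. The difference was 0.41 ± 0.16 (SE), or 1.33-fold, with a 95% interval from 0.07 to 0.75 (limma, unadjusted p = 0.0211, adjusted p = 0.0775). The chips gave 0.22, -0.02 and 1.19, and without the third chip it was 0.04 (adjusted p = 0.941).

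Its 2 probes gave like differences, 0.44 for O8413 and 0.38 for A_72_P527747, without following each other across pigs (r = 0.06). O8413 had r = 0.81 with the body-to-end index and A_72_P527747 had r = -0.77 with brightness. With brightness as a covariate the differences were 0.71 and -0.19. On the third chip alone the probes gave 1.18 and 1.19.

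Averaged by litter, NLRC5 was the one gene of the 8 whose breeds did not overlap. With the chip effect removed, the 5 DD litters lay between 8.70 and 9.05 and the 6 LW litters between 8.42 and 8.65. The permutation test over all divisions of the litters, two-sided and unadjusted, gave p = 0.002165 for NLRC5, the smallest that 462 divisions can give. The chip effect had been removed with the true breed labels held, so the permutation p values are approximate. Without the third chip the NLRC5 difference was 0.04. Of all gene names, 8.19% had litter means that did not overlap, 2.4% with DD above. For TAP2 the litters lay between 9.68 and 10.2 in DD and between 9.52 and 9.90 in LW pigs and overlapped (permutation p = 0.0325). The permutation p was 0.0823 for PSMB10, 0.123 for PSMB8 and at least 0.201 for the other 4. In a limma fit of litter means, NLRC5 was the 1 of the 8 past the threshold (adjusted p = 0.0231), where 19.2% of gene names were called. Neither NLRC5 probe alone kept the litters apart, since O8413 lay between 7.88 and 9.08 in DD and 7.85 and 8.24 in LW litters.

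**Figure D4:**
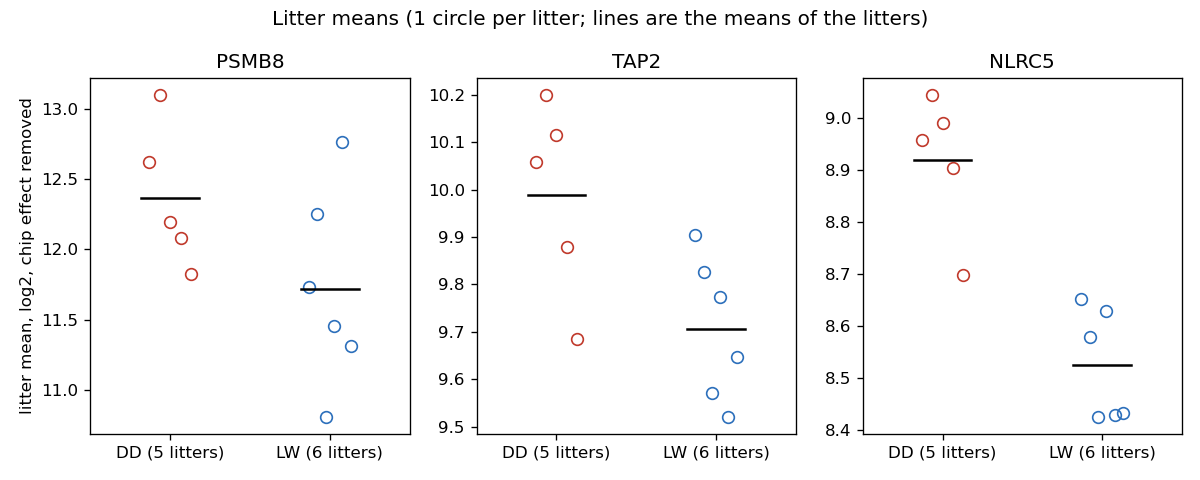
Litter means of PSMB8, TAP2 and NLRC5 are plotted in log2 units with the chip effect removed, 1 circle per litter, for 5 DD and 6 LW litters; lines are the means of the litters. The NLRC5 litters do not overlap (lowest DD 8.70, highest LW 8.65), while those of PSMB8 and TAP2 do.

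One DD litter stood at the top for most of these genes. In the deposited values the siblings DD_06 and DD_11, on different chips, were the 2 highest DD pigs for PSMB8, PSMB9, PSMB10, TAP1, TAP2 and ERAP1. They also had the highest mean level of 28 interferon-stimulated genes, at 1.79 and 0.60 above the mean of all pigs, while the other pigs ran from -0.87 to 0.41. Of these 28 genes, 13 rose and 0 fell in DD pigs, with a median difference of 0.56; OAS1 (1.88), MX1 (1.47) and MX2 (1.41), antiviral effectors, had the largest differences. The 13 were 46.4% of the list, beside 20.9% of all gene names. By chip OAS1 gave 3.85, 0.46 and 1.62, MX1 1.53, 1.59 and 1.21, and MX2 1.58, 1.35 and 1.32. Without the third chip 0 of the 28 passed, where 1.52% of all gene names did. With brightness as a covariate 2 passed, where 2.15% of all gene names did, and the median difference was 0.78. Without the litter of DD_06 and DD_11, 12 rose and 1 fell, where 31.7% of all gene names were called. The part of interferon-stimulated expression in the levels of the 8 genes was not tested.

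The genes were also compared by how they varied within chip and breed, as a description over 21 pigs that share arrays. PSMB9 and PSMB10, on different chromosomes, followed each other at r = 0.83, and PSMB8 was closer to the TAPBP probe O846 (0.82) than to either. TAP1 had r of 0.72 with PSMB9 and 0.74 with PSMB10. TAP2 and NLRC5 were the most alike pair (0.94), and each has 1 probe that ran against brightness, while their other probes ran with the index.
Over all named genes, the most alike to PSMB8 were DRG1 (0.95), GCDH (0.95) and DDX39B (0.95), and to PSMB9 they were OSTF1 (0.93), CDC42SE1 (0.90) and INPP1 (0.87). PSMB10 was most like CDC42SE1 (0.92), PSMB9 (0.83) and MYLIP (0.83). TAP1 was most like TKT (0.93), MSN (0.93) and IRF1 (0.91), the last being an interferon-induced transcription factor. TAP2 was nearest to NLRC5 (0.94), MYD88 (0.93) and HDAC10 (0.90), and NLRC5 to TAP2 (0.94), TUBGCP6 (0.91) and AIMP2 (0.90). TAPBP had CA9 (0.94), RPS27 (0.93) and KLF17 (0.92), and ERAP1 had TIPARP (0.84), ZNF217 (0.81) and SEC24D (0.80).

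The other genes of the pathway gave 14 calls among 71 genes, 6 higher and 8 lower in DD pigs. This share of 19.7% lay near the 20.9% of all gene names, and 0 of the 71 passed with brightness as a covariate, without the third chip, or without the 5 arrays of low index. In these settings 2.15%, 1.52% and 2.43% of all gene names passed. With the index as a covariate 16 of the 71 passed (22.5%), where 17.1% of all gene names did. Without the litter of DD_06 and DD_11 it was 24 of the 71 (33.8%), beside 31.7% of all gene names. Of 9 proteasome counterparts and regulators, 1 rose and 1 fell (median -0.17). PSMF1, an inhibitor of the proteasome, was 0.86 ± 0.21 (SE) higher (adjusted p = 0.0132), with 0.74, 0.72 and 1.17 by chip. PAAF1, which also acts against proteasome assembly, fell by 0.86 (adjusted p = 0.0113), with -0.72, -0.96 and -0.88 by chip. Both kept their direction on each of the 3 chips. The constitutive subunits PSMB5, PSMB6 and PSMB7, which the 3 immunoproteasome subunits replace, had differences of -0.13, -0.23 and -0.24, none past the threshold.
Of 9 structural core subunits 1 fell, PSMB1 by 0.42 (median of the 9, -0.09). Of 8 peptidases 2 rose, NPEPPS by 0.40 and THOP1 by 0.29, both cytosolic enzymes that cut peptides (median -0.02).

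Of 9 genes listed as class I loading partners, some with general roles in the endoplasmic reticulum, 1 rose and 4 fell, with a median of -0.33. The 5 called were 55.6% of the list, beside 20.9% of all gene names. With brightness as a covariate 0 of the 9 passed, where 2.15% of all gene names did, and the median was -0.04. CALR, the lectin chaperone of the loading complex, rose by 0.50 (adjusted p = 0.0178), from a median of 10.8 in LW to 11.3 in DD pigs. GANAB, which trims the sugars that this chaperone reads, fell by 0.52, the chaperone HSPA5 fell by 0.49, and the translocon subunits SEC61B and SEC61A1 fell by 0.37 and 0.33. With brightness as a covariate these 4 differences were -0.24, -0.20, -0.30 and -0.21, and that of CALR was 0.46. For SEC61B the DD pigs lay between 9.61 and 10.1 and the LW pigs between 10.1 and 10.4, so that they met only at the edge. B2M, the light chain of class I, had a difference of -0.20 that did not pass. PDIA3 (-0.34), UGGT1 (-0.08) and CANX (0.01) did not pass either.
Of 16 regulators 1 rose, RFXANK by 0.83, with -0.08, 1.00 and 1.63 by chip and r = -0.90 with brightness; with brightness as a covariate it was -0.03 (adjusted p = 0.996). Of 20 neighbours in the SLA class II region 1 rose and 2 fell, at a median of -0.08. COL11A2 rose by 0.82 with the same course over chips (0.02, 1.00 and 1.47) and was -0.03 with brightness as a covariate. RPS18 fell by 0.38 and LEMD2 by 0.34, and with brightness as a covariate they were -0.02 (adjusted p = 0.995) and -0.14 (adjusted p = 0.809).

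**Figure D5:**
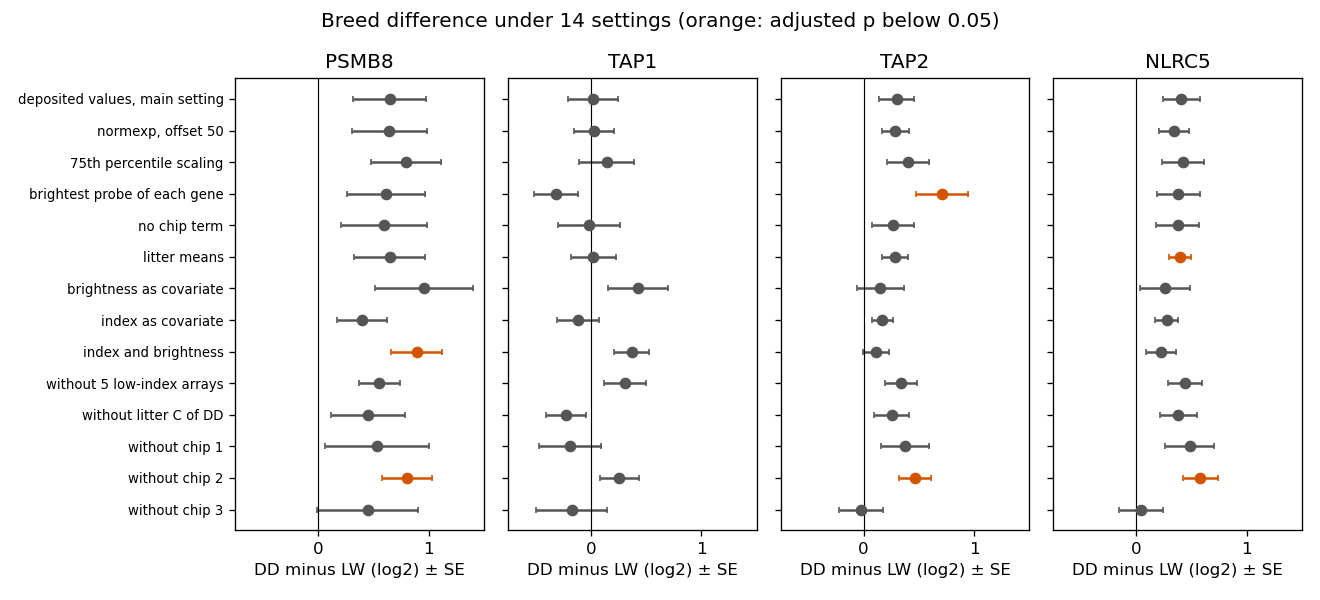
The difference DD minus LW with its SE is plotted in log2 units for PSMB8, TAP1, TAP2 and NLRC5 under 14 settings of the analysis (orange: adjusted p under 0.05). PSMB8 lies above 0 throughout, TAP1 on both sides, and TAP2 and NLRC5 are near 0 without the third chip, at -0.02 and 0.04.

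Whole blood holds many cell types, so their markers were read too. Of 12 T cell markers 4 fell and 0 rose in DD pigs (median -0.44). Of 9 erythroid markers 4 rose and 0 fell (median 0.55). These were 33.3% and 44.4% of the lists, beside 20.9% of all gene names. When brightness was a covariate 0 of either list passed, at medians of -0.12 and -0.001, and without the third chip 0 of either passed, at medians of -0.40 and 0.31. In these settings 2.15% and 1.52% of all gene names passed. Of 8 NK and cytotoxic cell markers, 7 monocyte markers and 7 platelet markers 1 each fell, and of 8 B cell and 8 granulocyte markers 0 passed. The mean level of the T cell list, centred on all pigs, ran from -0.90 to 0.45 in DD and from -0.44 to 0.54 in LW pigs. Leukocytes carry immunoproteasomes without stimulation, and the part of cell composition in the differences of the 8 genes was not tested.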

How the data were processed

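Blood RNA of 21 pigs was measured on 60-base Agilent arrays. The authors deposited scanner intensity files (Agilent Feature Extraction 10.7.3.1, per the labels) and a log2 matrix, which per the study's methods was normexp background corrected, log2 scaled and quantile normalised after outlier arrays were removed. Quantile normalisation makes all arrays share 1 distribution, so the overall intensity of an array is equalised. Levels of single probes can still follow brightness, as with r = -0.89 for TAP2 A_72_P013781. Every matrix column was closest to its own array (21 of 21, r 0.982 to 0.991). Groups followed the labels, and litter and chip the study's sample sheet and the array headers.

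Controls and the lowest 25% of probes by mean were removed, and probes were averaged per gene name, which left 34393 names. The difference DD minus LW was fitted with limma 3.58.1 in R 4.3.3 (chip and breed fixed, litter by duplicateCorrelation, consensus correlation -0.11; threshold 0.05 after Benjamini-Hochberg adjustment). Litter means, with the chip effect removed beforehand, were compared by permutation over all divisions of the litters. The precision is limited by the number of arrays; 44.7% to 63.8% of probes were well above background and 0 were saturated. The methods were tested on simulated data of 34393 gene names, with 100 changed at each size. Changes of 0.5 log2 units were recovered in 19%, and changes of 1.0 in 80%. Far fewer names changed there than were called here, so these shares do not carry over directly. The text names all 8 members, up to 6 called genes per pathway list, the 3 genes most like each member, and up to 3 of each marker list. The members and lists were chosen with earlier results of these data known. Body-to-end index, letter case and litter alternatives were added after seeing the data.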

Additional observations from a re-analysis of the deposited data

How the results depend on the processing

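The count of members past the threshold was 0 in the analysis as reported and in 15 of 20 other settings. It was 3 without the second chip (PSMB8, TAP2 and NLRC5), where 14.0% of all gene names passed. With index and brightness as covariates it was 2 (PSMB8 and ERAP1), where 3.02% of all gene names passed. It was 1 with the brightest probe per gene (TAP2, beside 22.6% of all gene names). Litter means also gave 1 (NLRC5, beside 19.2%), as did the fit without the litter of DD_06 and DD_11 (PSMB10, beside 31.7%). Leaving out 1 pig at a time gave 0 to 1. The 1 was NLRC5 without DD_06 (beside 32.9% of all gene names) or without DD_16 (beside 17.4%). PSMB8, ERAP1 and NLRC5 kept a positive difference in all 20 settings and all 21 omissions of a pig. Over the settings PSMB8 ran from 0.40 to 0.96 and TAPBP from -0.24 to 0.0650. Near 0 were ERAP1 without the first chip (0.00244, highest 0.46) and NLRC5 without the third (0.0417, highest 0.58). Over the omissions of a pig PSMB8 ran from 0.42 (without LW_15) to 0.81 (without DD_16). ERAP1 ran from 0.0863 (without DD_06) to 0.22 (without LW_18), and TAPBP from -0.21 (without LW_15) to -0.0137 (without DD_16).

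TAP1 changed sign most often, at -0.32 with the brightest probe, -0.0152 without a chip term, -0.19 without the first chip, -0.17 without the third chip, -0.12 with the index and -0.23 without that litter; TAP1 ran from -0.14 to 0.19 over omissions of a pig, and PSMB9 from -0.0182 to 0.135. Without the third chip TAP2 was -0.0216, and without that litter PSMB9 was -0.0643. With brightness as a covariate PSMB10 was 0.0262 and TAPBP 0.0650, with both covariates 0.0117 and 0.0324, and TAPBP was 0.0345 without the second chip. On the second chip alone TAP1 was -0.52, TAP2 -0.0456 and NLRC5 -0.0212, and on the third chip alone TAPBP was 0.0857 and ERAP1 -0.11. With brightness in the fit of single probes, the PSMB10 probes were 0.0372 (A_72_P003971), 0.0339 (A_72_P024281), 0.00951 (A_72_P501185) and 0.0255 (A_72_P644145), TAP1 O4777 0.10, TAP2 A_72_P013781 -0.0764, TAPBP O846 0.0652 and NLRC5 A_72_P527747 -0.19. With the index, TAP1 A_72_P172206 was -0.0772, TAP1 A_72_P223837 -0.00848, TAP2 A_72_P275849 -0.13 and TAP2 O9791 -0.0602, and TAP2 A_72_P013781 kept 0.70 at an adjusted p of 0.0578. The causes were not tested.

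The count of all gene names called moved more: 7171 as reported, 4397 without a filter on low probes, 1866 without a chip term, 739 with brightness, 1039 with both covariates, 835 without the 5 arrays of low index, 524 without the third chip, 10899 without the litter of DD_06 and DD_11, 2119 of 8983 over gene symbols alone, and 2159 (without LW_18) to 11304 (without DD_06) over omissions of a pig. The litter block used a negative correlation, and without it 4894 were called. DD arrays were dimmer by 0.761 and 1.27 log2 units on the last 2 chips, so breed and brightness overlap there and 10 against 11 arrays leave differences such as 0.65 ± 0.33 unsettled. No paired analysis was possible because the breeds share no replicate numbers and no litters.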
